A study of Mus musculus with 5 samples.

Results

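The nuclear-encoded subunits of respiratory chain complexes II, III and IV and of ATP synthase (complex V), together with cytochrome c, were examined in brain RNA of 5 male mice. Members were the protein-coding genes whose GENCODE M21 symbol is Sdha to Sdhd, Cyc1 or Cycs, or begins with Uqcr, with Cox4 to Cox8 or with Atp5. The rule took 49 of the 47729 genes in the table, and no measured value entered it. The series holds 1 group, mice of the inbred strain C57BL/6 at 30 months of age, called mice 7, 8, 9, 10 and 11 after the numbers in their labels. No transgene, treatment or other age was part of it, so the mice could only be compared with each other. The labels do not say how much of each brain was taken or that each number is a separate animal, and each SD and p-value therefore covers whatever separates these 5 samples, technical differences included.

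The libraries held between 15392006 and 18723390 counts. No library repeated another: the chi-square per gene between them ran from 6.49 (mice 9 and 10) to 90.5 (mice 7 and 11), where sampling noise alone would give about 1, and the 4 highest values were all in pairs with mouse 11. Neuronal markers had summed levels of 1314 to 1428 RPKM (reads per kilobase of gene, scaled to the library's total count), and the markers of striated muscle 6.08 to 8.79 RPKM. Each ± gives the SD over the 5 mice (n = 5).

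Oxidative phosphorylation passes electrons from fuel molecules to oxygen and uses the released energy to make ATP. Succinate dehydrogenase (complex II) hands electrons from the citric acid cycle to ubiquinone, the cytochrome bc1 complex (complex III) moves them on to cytochrome c, cytochrome c oxidase (complex IV) gives them to oxygen, and ATP synthase lets protons flow back through a rotating ring. Complexes III, IV and V combine nuclear-encoded subunits with a few encoded by mitochondrial DNA, while complex II is wholly nuclear, and neurons depend on this pathway for most of their ATP.

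Together the members took 0.614% ± 0.0394 of all counts. The shares were 0.588, 0.652, 0.594, 0.576 and 0.662% in mice 7 to 11, lowest in mouse 10 and highest in mouse 11. Of the 49 members, 47 had a mean count of at least 10 and entered the tests. The exceptions were Cox7b2, with a mean level of 0.161 RPKM, and Cox8c, with 0 counts in all 5 libraries, a value that allows for as many as 3. The median member had 41.6 RPKM, against 4.59 RPKM for the median gene tested.

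**Figure D1:**
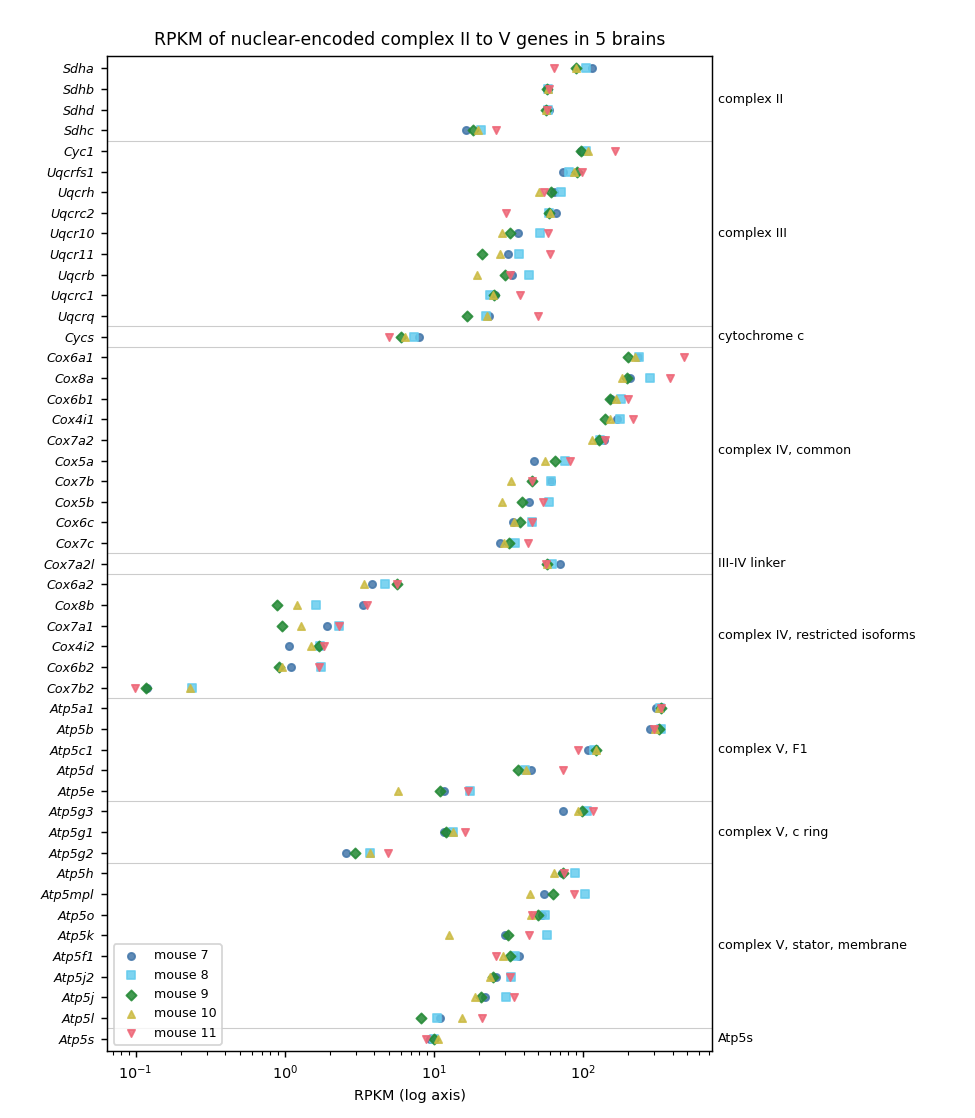
RPKM (log axis) of the 48 members with at least 1 count, by complex and by decreasing mean; each symbol is 1 mouse. The α and β subunits of ATP synthase lie near 300 in every mouse, the restricted isoforms of complex IV lie under 6, and Uqcrc2 in mouse 11 (30.3) stands apart from the other mice (59.5 to 66.2).

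Variation between the mice was tested with edgeR's quasi-likelihood fit over 16318 genes. Each gene's dispersion was compared with that of genes of like expression in the same libraries. The test therefore asks only which genes vary more than such genes, and a lack of calls does not mean that the mice were alike. At an adjusted p under 0.05 it called 0 genes (0.0% of those tested) and so 0 of the 47 members. An unadjusted p under 0.05 was reached by 6 members, Atp5k, Uqcrq, Cox6a1, Atp5e, Uqcr11 and Cox8a, and by 814 of all genes tested (4.99%). The number of such members was 10 without mouse 7 and 3 without mouse 10, with 0 called at the adjusted threshold each time. The biological coefficient of variation over all genes was 23.3%. The differences between mice given below are therefore descriptions of these libraries.

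Complex II had the lowest median SD of log2 CPM (counts per library total, on a log2 scale) among the complexes, 0.15, against 0.42 for complex III, 0.34 for complex IV and 0.25 for complex V. The complex IV subunits that are made in most tissues had 0.30. The 4 complex II genes were uneven, with SDs of 0.03 for Sdhd, 0.04 for Sdhb, 0.26 for Sdhc and 0.30 for Sdha. Sdhb, the iron-sulfur subunit of complex II, had 57.3, 58.4, 57.8, 57.9 and 59.2 RPKM in mice 7 to 11. Sdhd, one of the membrane anchors, had 59.1, 58.1, 56.6, 56.5 and 57.6 RPKM. The highest mouse was 1.03-fold above the lowest for Sdhb and 1.05-fold for Sdhd. The other subunits lay on opposite sides of their means in mouse 11. Sdha, the flavoprotein that oxidizes succinate, had 115, 104, 89.8, 90.5 and 64.0 RPKM, so that mouse 11 was lowest and mouse 7 highest. Sdhc, the other membrane anchor, had 16.4, 20.7, 18.2, 19.7 and 25.9 RPKM and was highest in mouse 11. Sdhb was below Sdha in all 5 mice, with a mean log2 ratio of -0.64 ± 0.33 (exact two-sided sign-flip permutation test, p = 0.0625, adjusted p = 0.0703 over 18 gene pairs). With 5 mice 0.0625 is the smallest p this test can give, so no pair could pass 0.05. With the length of the main transcript in place of the deposited gene length, the Sdhb and Sdha levels nearly met, at a log2 ratio of -0.095.

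In complex III the catalytic subunits Cyc1 and Uqcrfs1 had the highest levels with the deposited gene lengths. Scaled by main transcript length they had 89.4 and 86.5 RPKM, below Uqcrh at 137 and Uqcrq at 122. Cyc1, the haem-carrying cytochrome c1, had 97.0, 104, 97.2, 108 and 163 RPKM. Mouse 11 stood above the other 4, which lay close together. Uqcrfs1, the Rieske iron-sulfur protein, had 73.4, 80.7, 91.8, 87.7 and 98.7 RPKM. Among the small subunits Uqcrh, the hinge protein, had 60.4 ± 7.95 RPKM and Uqcr10 had 41.6 ± 12.8. Uqcr11 had 35.5 ± 14.9 RPKM, with 59.9 in mouse 11 and 21 in mouse 9. Uqcrb had 31.8 ± 8.52 RPKM, lowest in mouse 10 at 19.5 and highest in mouse 8 at 43.3. Uqcrq, a small subunit of the membrane domain, had 23.5, 22.3, 16.6, 22.7 and 50.1 RPKM, so that mouse 11 was highest and mouse 9 lowest.

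Uqcrc1 and Uqcrc2 encode the paired core proteins of complex III, which face the matrix, and mouse 11 was far from the other mice for both, on opposite sides. Uqcrc1 had 25.9, 23.7, 25.5, 25.1 and 37.6 RPKM. Uqcrc2 had 66.2, 59.6, 59.5, 59.9 and 30.3 RPKM. The log2 ratio of Uqcrc1 to Uqcrc2 was between -1.32 and -1.19 in mice 7 to 10 and 0.30 in mouse 11 (mean -0.95 ± 0.70, exact two-sided sign-flip permutation test, p = 0.125, adjusted p = 0.125 over 18 pairs). Uqcrc1 was above Uqcrc2 in 1 of 5 mice. With the length of the main transcript the mean ratio was -0.076. Uqcrc1 (ENSMUSG00000025651) lies on chromosome 9 from 108936633 to 108949623 and Uqcrc2 (ENSMUSG00000030884) on chromosome 7 from 120635176 to 120659524 in GRCm38. In the coding sequence 57.0% of Uqcrc1 and 46.7% of Uqcrc2 was G or C.

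Cytochrome c itself was measured at a low level. Cycs, the somatic cytochrome c gene, had 7.93, 7.41, 6.00, 6.41 and 5.01 RPKM, highest in mouse 7 and lowest in mouse 11. It was below Cyc1 in all 5 mice, with a mean log2 ratio of -3.91 ± 0.51 (exact two-sided sign-flip permutation test, p = 0.0625, adjusted p = 0.0703). All 50-base windows of the Cycs coding sequence (100%) also occur in transcripts of other annotated genes, among them Gm10053 and Gm10108, so this level is uncertain. Over the whole main transcript of Cycs 28.5% of windows were shared. The testis form Cyct was at 0 counts in all 5 libraries.

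Complex IV held 10 subunits that are made in most tissues. Cox6a1, Cox8a, Cox6b1, Cox4i1 and Cox7a2 ranked 3 to 7 among all members by mean RPKM, and the other 5 ranked 15 to 29. Cox6a1 had 233, 236, 199.9, 225.2 and 478 RPKM. Mouse 11 was above the others, which lay close together. Cox8a, a single-pass membrane subunit, had 208, 280.4, 199.0, 184 and 383 RPKM. Here too mouse 11 was highest and mouse 10 lowest. Cox4i1, the subunit to which ATP binds, had 168, 176, 141, 151 and 216 RPKM. Cox6b1, which faces the intermembrane space, had 155, 181, 153, 168 and 201 RPKM. Mouse 11 was again highest for both, and mouse 9 lowest. Cox7a2 had 138, 129.7, 127, 115 and 142 RPKM, the narrowest relative spread of the 10. Cox7b, encoded on the X chromosome, had 60.9, 61.1, 45.4, 32.7 and 45.8 RPKM, with mouse 10 lowest and mice 7 and 8 highest. Cox5a and Cox5b had 65.1 ± 14.4 and 44.9 ± 12.1 RPKM, and Cox6c and Cox7c 39.5 ± 5.60 and 33.4 ± 5.97. Cox7a2l, with 333 coding bases and listed apart from those 10, had 70.2, 62.0, 57.4, 57.5 and 56.3 RPKM. It was below Cox7a2 in all 5 mice, by a log2 ratio of Cox7a2 to Cox7a2l of 1.09 ± 0.14.

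The 7 isoforms of complex IV that are known from muscle, lung or testis were all under 6 RPKM in each mouse. Cox6a2, the heart and muscle form, which parvalbumin interneurons of the brain also make, had 3.88, 4.68, 5.63, 3.39 and 5.65 RPKM. The muscle form Cox7a1 had 1.92, 2.31, 0.954, 1.28 and 2.30 RPKM. Cox8b, another muscle form, which is also found in brown fat, had 3.38, 1.62, 0.882, 1.21 and 3.54 RPKM. Mice 7 and 11 were high and mice 9 and 10 low for Cox8b, but on only 19, 9, 5, 7 and 24 counts in mice 7 to 11. Cox7a1 had 16, 19, 8, 11 and 23 counts. Cox4i2, which replaces Cox4i1 in lung and in cells around small vessels, had 1.06, 1.73, 1.7, 1.5 and 1.83 RPKM. The testis forms Cox6b2, Cox7b2 and Cox8c had 1.29 ± 0.406, 0.161 ± 0.0681 and 0 RPKM. Cox7b2 had 1 or 2 counts in each library, and 3 counts of Cox8c would be at most 0.402 RPKM.

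Against each restricted isoform the common isoform was higher in 5 of 5 mice. On the scale of log2 of RPKM plus 1 the mean ratios were 6.06 ± 0.26 for Cox4i1 to Cox4i2, 5.55 ± 0.46 for Cox6a1 to Cox6a2 and 6.25 ± 0.14 for Cox6b1 to Cox6b2. They were 5.60 ± 0.28 for Cox7a2 to Cox7a1, 5.40 ± 0.39 for Cox7b to Cox7b2 and 6.37 ± 0.48 for Cox8a to Cox8b. Each of these reached only the smallest possible p (0.0625, exact two-sided sign-flip permutation test, adjusted p = 0.0703). Cox8c is listed at 0, so its ratio depends on the value added to RPKM and is not interpreted.

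Markers of the cells in which the restricted isoforms are known were also measured. In bulk tissue, fewer cells of a type and less RNA per cell cannot be told apart. The 8 parvalbumin interneuron markers all passed the count filter, with sums of 427, 491, 463, 503 and 607 RPKM in mice 7 to 11. Most of each sum was Cplx1, with a mean of 338 RPKM, 282 in mouse 7 and 437 in mouse 11. Pvalb itself had 65.9 RPKM in mouse 11 and 66.04 in mouse 10. By log2 CPM 4 of the 8 markers were highest in mouse 11 and 2, Erbb4 and Tac1, were lowest there. The 12 mural cell markers also all passed, with sums from 87.3 to 100.4 RPKM, and the highest of them was Vtn at 38.7 RPKM. Of 14 striated muscle markers 7 passed, the highest being Acta1 at 3.67 ± 0.792 RPKM, while the defining kinase Ckm had a mean of 0.6 counts. Of 5 brown fat markers 2 passed, and Ucp1, which defines that tissue, had a mean of 1.8 counts. Of 12 male germ cell markers 2 passed, Odf2 at 6.60 RPKM and Ddx4 at 0.988, and Tnp1, Tnp2, Ldhc, Cyct and Pgk2 were at 0. The part of these cells in the isoform levels was not tested.

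ATP synthase contained the highest and some of the lowest levels. Atp5a1, the α subunit of the catalytic head, had 311, 330.3, 333, 326 and 334 RPKM, the highest mean of all members at 327 ± 9.26. Atp5b, the β subunit that carries the catalytic sites, had 283, 335, 322, 303 and 300.2 RPKM. The pair differed little, with a log2 ratio of Atp5b to Atp5a1 of -0.085 ± 0.071, and Atp5b was higher in mouse 8 alone (exact two-sided sign-flip permutation test, p = 0.125, adjusted p = 0.125). Their order depends on the gene length used. With the length of the main transcript Atp5b had 682 and Atp5a1 415 RPKM, a log2 ratio of 0.71.

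The central stalk was less even. Atp5c1, the γ subunit that turns inside the head, had 113 ± 13.1 RPKM. Atp5d, the δ subunit at its foot, had 45.2, 41.0, 36.9, 41.6 and 73.4 RPKM, so that mouse 11 stood above the other 4. Atp5e, the small ε subunit, had 11.6, 17.6, 11.1, 5.75 and 17.0 RPKM. Mouse 10 was lowest for Atp5e by a wide margin, and mice 8 and 11 were highest.

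The c subunit of the rotating ring is encoded by 3 genes that differ in the targeting peptide and give the same mature protein. The last 75 codons of Atp5g1, Atp5g2 and Atp5g3 encoded 75 of 75 identical residues, while Atp5g1 differed from Atp5g3 at 45 of those bases and Atp5g2 at 48. The 90 bases printed here, from the GENCODE M21 transcripts, show how the same stretch of protein is written in each gene. Capitals mark bases that differ from Atp5g3, 18 in Atp5g1 and 17 in Atp5g2, and positions count from the first base of the start codon (Atp5g1 244 to 333, Atp5g2 274 to 363, Atp5g3 259 to 348).
Atp5g3: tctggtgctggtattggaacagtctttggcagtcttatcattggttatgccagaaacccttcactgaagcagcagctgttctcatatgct
Atp5g1: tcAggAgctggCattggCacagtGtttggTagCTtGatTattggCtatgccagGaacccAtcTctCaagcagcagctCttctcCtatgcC
Atp5g2: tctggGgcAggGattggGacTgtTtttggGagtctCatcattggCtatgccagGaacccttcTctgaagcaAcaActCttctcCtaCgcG

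Atp5g3 (chromosome 2, 73908447 to 73911326) had 73.1, 107, 98.6, 92.1 and 117 RPKM. Atp5g1 (chromosome 11, 96068852 to 96075670) had 11.8, 13.5, 12, 13.5 and 16.3 RPKM. Atp5g2 (chromosome 15, 102662864 to 102672352) had 2.57, 3.72, 2.97, 3.76 and 4.91 RPKM. All 3 were lowest in mouse 7 and highest in mouse 11. Their order was the same in each mouse, with log2 ratios of 2.76 ± 0.16 for Atp5g3 to Atp5g1 and 1.67 ± 0.11 for Atp5g1 to Atp5g2. With the length of the main transcript Atp5g1 had 111 RPKM and Atp5g3 298, a log2 ratio of 1.41. Atp5g1 and Atp5g2 also have near-identical pseudogenes, and Atp5g3 has none among annotated transcripts.

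Among the subunits of the stator and membrane part of complex V, Atp5k varied most between mice. Atp5k, the small e subunit that helps ATP synthase form dimers, had 30.1, 57.2, 31.6, 12.6 and 43.4 RPKM, a 4.52-fold range with mouse 10 lowest and mouse 8 highest. It was the only member called (edgeR, adjusted p under 0.05) when genes with few counts were kept in the fit, where 230 of 28335 genes were called. Atp5mpl, another short membrane subunit, had 70.6 ± 24.1 RPKM with the same extremes, 44.4 in mouse 10 and 103 in mouse 8. Atp5h, Atp5o and Atp5f1, which form the peripheral stalk, had 74.8 ± 8.63, 49.95 ± 4.77 and 32.0 ± 4.47 RPKM. Atp5j2 and Atp5j had 28.0 ± 4.34 and 25.3 ± 6.68 RPKM. Atp5l, the g subunit, had 11.1, 10.4, 8.24, 15.5 and 21 RPKM. Atp5s, whose symbol fits the rule, had 9.80 ± 0.718 RPKM.

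**Figure D2:**
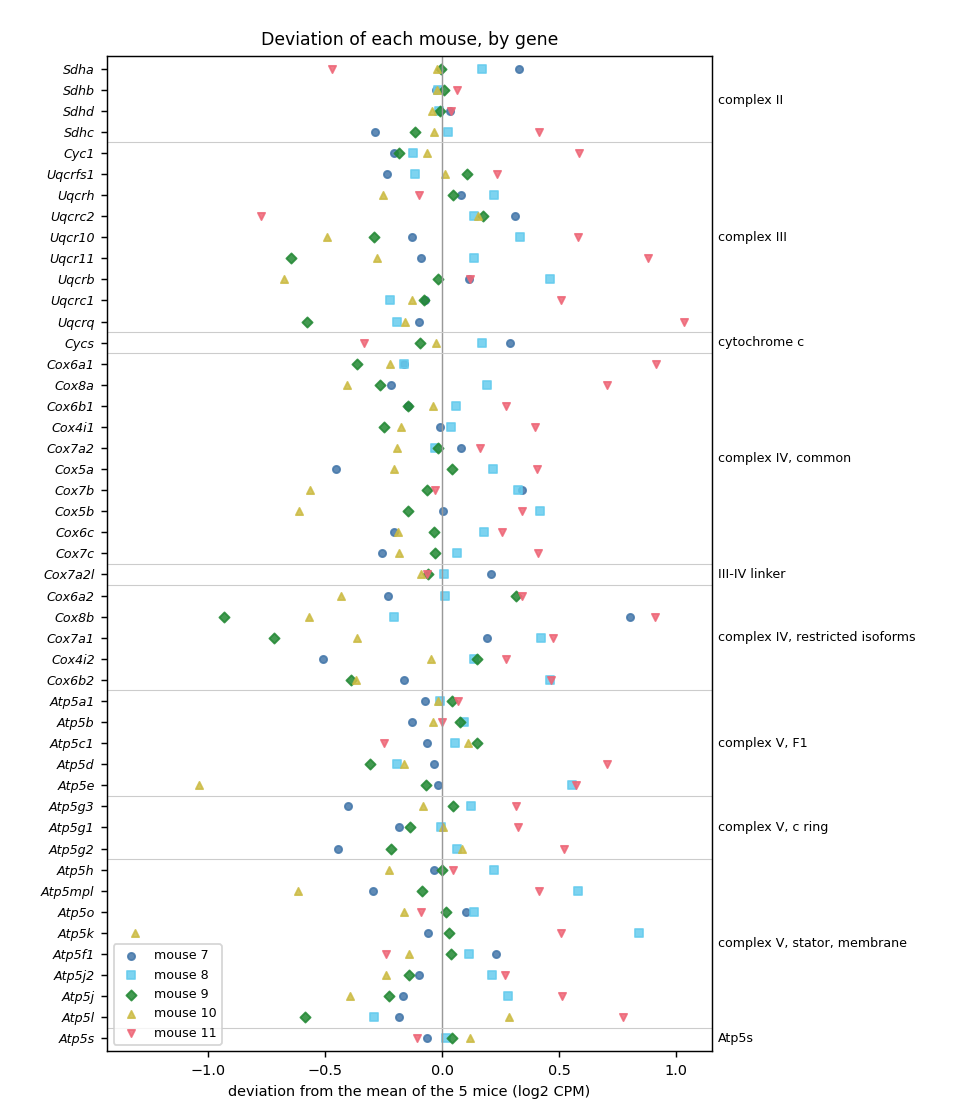
Deviation of each mouse from the mean of the 5 in log2 CPM (TMM scaling, prior count 1) for the 47 members tested, by complex and by decreasing mean RPKM. Mouse 11 is the right-most symbol for 31 members and the left-most for 6, among them Uqcrc2 and Sdha; mouse 10 is the left-most for 17, among them Atp5k and Atp5e.

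Counted over the members, mouse 11 was highest for 31 of 47, mouse 8 for 8, mouse 7 for 6, and mice 9 and 10 for 1 each. Over all genes tested mouse 11 was highest for 35.8% and mouse 8 for 11.7%. Mouse 10 was lowest for 17 members, mouse 7 for 13, mouse 9 for 10, mouse 11 for 6 and mouse 8 for 1, against 12.8% of all genes lowest in mouse 10. Of the 16318 genes tested, 3805, 2343, 2505, 2082 and 5583 were lowest in mice 7 to 11. Those highest numbered 4292, 1913, 2414, 1858 and 5841, so mouse 11 was most often the extreme library in both directions. The members' median log2 deviations were -0.08, 0.12, -0.07, -0.16 and 0.32 in mice 7 to 11, and the medians over all genes tested lay between -0.01 and 0.01. The median SD of log2 CPM was 0.30 over the members and 0.30 over all genes, or 0.27 and 0.25 where the mean count had to reach 50. Without mouse 11 it was 0.18 over the members and 0.20 over all genes. A total of 14 members had a highest mouse more than 2-fold above the lowest, and 3, Atp5a1, Sdhb and Sdhd, stayed within 1.1-fold. The 14 include Cox8b and Cox7a1, with mean counts of 12.8 and 15.4. No share over all genes is given for these folds.

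By complex, the median deviation in mouse 11 was 0.51 for complex III, 0.37 for the common subunits of complex IV, 0.32 for the c ring genes, 0.34 for the stator and membrane part, 0.07 for the F1 head and stalk and 0.05 for complex II. In mouse 10 it was -0.16 for complex III, -0.20 for the common subunits of complex IV, 0.0041 for the c ring genes, -0.23 for the stator and membrane part, -0.04 for the F1 head and stalk and -0.03 for complex II.

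Other gene groups with short transcripts were placed in the same way. The 36 nuclear-encoded complex I genes had median deviations of -0.05, 0.13, -0.10, -0.15 and 0.27, with 22 highest in mouse 11 and 14 lowest in mouse 10. The 81 cytosolic ribosomal protein genes that passed the filter had 0.15, 0.13, -0.13, -0.32 and 0.18, with 33 highest in mouse 11 and 45 lowest in mouse 10. The difference between these groups and the members was not tested. The 8 cerebellar granule cell markers summed to 54.6 RPKM in mouse 10 and to between 23.1 and 39.3 RPKM in the other 4 mice. Of the 8 markers 6 were highest in mouse 10 and 2 in mouse 11. The sum hides larger differences in single markers. In mice 7 to 11 Fat2 had 160, 21, 15, 638 and 9 counts, Cbln3 91, 5, 0, 391 and 22, and Gabra6 52, 2, 0, 127 and 0. The 6 erythroid markers had sums of 121, 185, 64.4, 158 and 209 RPKM, so that they were highest in mice 8 and 11. The part of these cell types in the members' deviations was not tested.

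The deviations in mouse 11 went with base composition. Across all genes the share of G and C in the transcript went with the deviation in mouse 11 (Pearson r = 0.65 and Spearman rho = 0.71 over 16264 genes of the same libraries, which are not independent replicates). Across the 47 members coding GC gave r = 0.58 and rho = 0.60. Members with high values in mouse 11 included Uqcrq (57.7% G and C, deviation 1.03), Cox6a1 (64.9%, 0.92), Uqcr11 (60.7%, 0.88), Atp5d (61.9%, 0.71), Cox8a (65.2%, 0.70) and Cyc1 (59.2%, 0.58), but also Atp5l (48.5%, 0.77). Those with low values included Uqcrc2 (46.7%, -0.78), Sdha (51.3%, -0.47), Cycs (46.0%, -0.33) and Atp5f1 (47.1%, -0.24). Coding bases 61 to 150 of Cox6a1 and Uqcrc2, a pair chosen after the values were seen, are printed with G and C in capitals: 62 of 90 in Cox6a1 and 42 of 90 in Uqcrc2.
Cox6a1: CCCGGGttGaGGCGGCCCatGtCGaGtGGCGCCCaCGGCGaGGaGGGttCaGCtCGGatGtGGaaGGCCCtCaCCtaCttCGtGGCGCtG
Uqcrc2: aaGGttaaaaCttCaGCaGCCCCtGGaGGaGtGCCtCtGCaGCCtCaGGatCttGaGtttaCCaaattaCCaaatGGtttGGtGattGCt

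A smooth trend of each library's deviation on transcript GC and log2 length, fitted over all genes, was then removed. The correlation of coding GC with the members' deviation in mouse 11 became 0.01 (Pearson) and -0.04 (Spearman). Because the trend was fitted on GC, this drop follows largely from the removal itself and is not a separate result. The median member's deviation in mouse 11 went from 0.32 to 0.13, and 20 of 47 members were still highest there, against 27.1% of all genes. Cox6a1 went from 0.92 to 0.22, Cox8a from 0.70 to 0.12, Atp5d from 0.71 to 0.10 and Cyc1 from 0.58 to -0.12. Uqcrq was then at 0.84, Atp5l at 0.83, Uqcrc2 at -0.62 and Sdha at -0.45. The median SD was then 0.21 over the members and 0.22 over all genes. It was 0.12 for complex II, 0.27 for complex III, 0.30 for complex IV and 0.20 for complex V. The SD of Sdhb went from 0.04 to 0.10, with mouse 11 at -0.17.

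**Figure D3:**
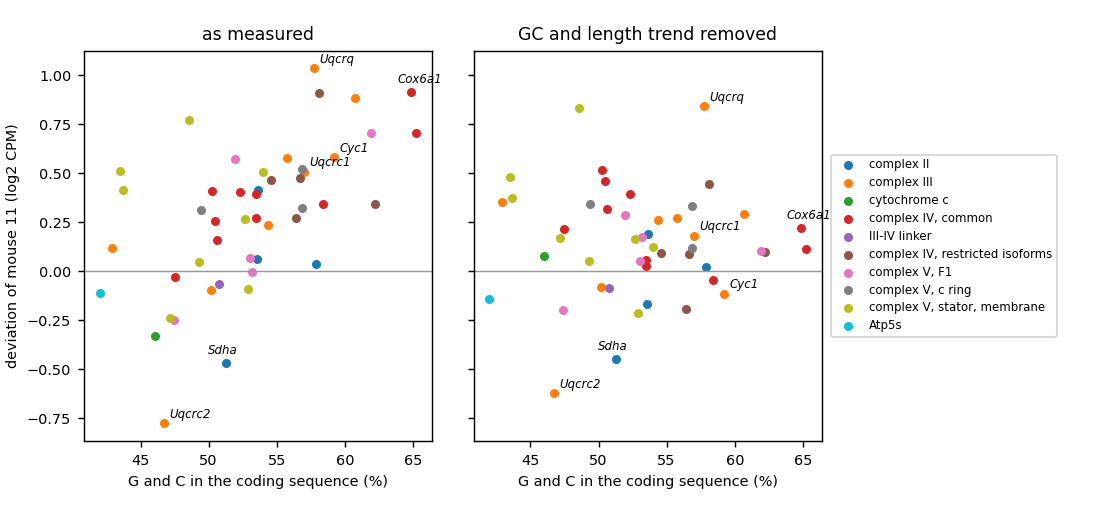
Deviation of mouse 11 from the mean of the 5 mice (log2 CPM) against the percentage of G and C in the coding sequence, for 47 members as measured (left) and with each library's trend on GC and length taken out (right). The slope on the left (r = 0.58) is absent on the right (r = 0.01), which follows largely from taking out a trend fitted on GC. On the right Uqcrq (0.84), Sdha (-0.45) and Uqcrc2 (-0.62) still lie far from 0.

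Coding length also went with the members' deviations, in opposite directions in different mice. Across the 47 members, which share these libraries, log2 coding length and the deviation had Pearson r = 0.56 and Spearman rho = 0.69 in mouse 10 and r = 0.43 and rho = 0.49 in mouse 9. The values were r = -0.53 and rho = -0.48 in mouse 11, r = -0.38 and rho = -0.40 in mouse 8 and r = 0.05 and rho = 0.08 in mouse 7. After the GC and length trend was removed r was 0.47 in mouse 10, 0.35 in mouse 9, -0.55 in mouse 11, -0.32 in mouse 8 and 0.07 in mouse 7. Of the 25 members with fewer than 400 coding bases, 24 were below their mean in mouse 10, where 50.4% of all genes were. The exception was Atp5l. In mouse 9, 22 of the 25 were below their mean, against 50.5% of all genes and 62.2% of the other short protein-coding genes described next. Of the same 25, 20 were above their mean in mouse 8 and 21 in mouse 11, against 51.1% and 50.7% of all genes. Among the other short protein-coding genes 65.1% were above their mean in mouse 8 and 70.0% in mouse 11. The cut at 400 bases was chosen after the values were seen. Of 584 other protein-coding genes with fewer than 400 coding bases 61.8% were below their mean in mouse 10, with a median deviation of -0.05, against -0.36 for the 25 members. The median SD of log2 CPM was 0.42 for the short members and 0.22 for the 22 with longer coding sequences.

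**Figure D4:**
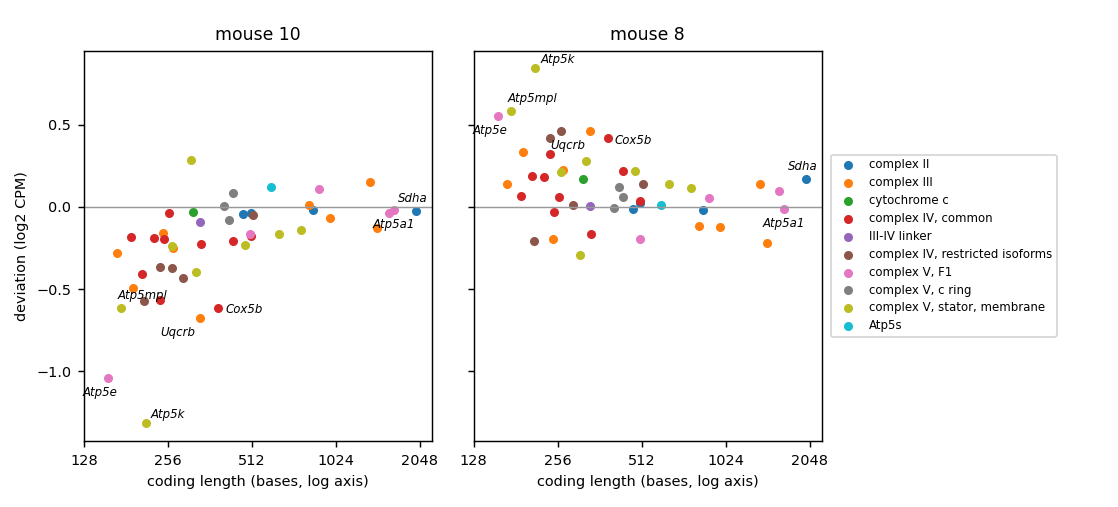
Deviation from the mean of the 5 mice (log2 CPM) in mouse 10 (left) and mouse 8 (right) against coding length (log axis) for 47 members. Short genes such as Atp5k, Atp5e, Atp5mpl, Uqcrb and Cox5b lie low in mouse 10 and high in mouse 8, while Atp5a1 and Sdha, with long coding sequences, lie near 0 in mouse 10.

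The short genes with the largest swings belong to different complexes. Atp5k (213 coding bases) deviated by -1.315 in mouse 10 and 0.84 in mouse 8, and Atp5e (156 bases) by -1.04 and 0.55. Uqcrb (333 bases) deviated by -0.68 and 0.46, Atp5mpl (174 bases) by -0.62 and 0.58, and Cox5b (387 bases) by -0.61 and 0.42. With the trend removed Atp5k was at -1.17 in mouse 10, Atp5e at -0.99, Uqcrb at -0.56, Cox5b at -0.54 and Atp5mpl at -0.45.

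Several members share their coding sequence with pseudogenes, and how reads that match more than 1 gene were counted was not given in the sources used here. For each member the 50-base windows of its coding sequence that also occur in a transcript of another annotated gene were counted. All windows were shared in Cycs, Cox7c, Atp5l and Atp5g2 (100%) and nearly all in Atp5g1 (99.7%). These 5 had a median of 13.2 RPKM and a range from 3.59 to 33.4, or 13.6 and 7.14 to 111 with the length of the main transcript. The 19 members outside the restricted isoforms with no shared coding window had a median of 70.6 RPKM, and the 18 with some shared coding windows a median of 49.6. Scaled by main transcript length these medians were 98.6 and 89.3 RPKM. The 26 pseudogenes that share sequence with those 5 members and are in the table had at most 9 counts in any library. Gm10175 and Gm10231, copies of Atp5g2, had 0 counts in all 5 libraries. Gm10053, annotated as protein coding, shares 847 windows of Cycs and also had 0 counts in all 5. Over 42 members the shared percentage of coding windows and log2 RPKM had r = -0.52 and rho = -0.38, or r = -0.39 and rho = -0.25 with the length of the main transcript. The part of shared sequence in these levels was not tested. Of the members, 12 also overlap an exon of another gene on the opposite strand, where reads cannot be told apart without strand information. On the same strand 1 member, Atp5g2, overlaps Mir688, and strand information would not separate those reads.

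**Figure D5:**
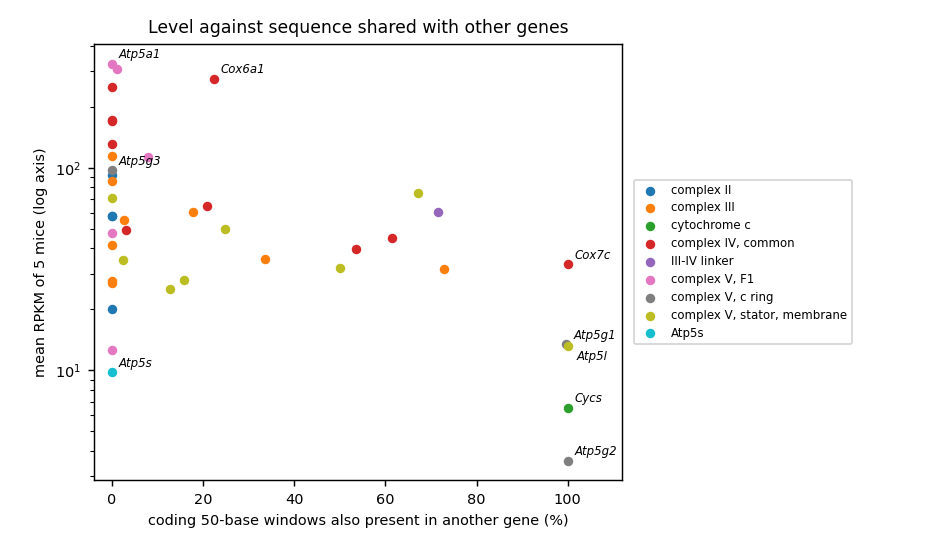
Mean RPKM (log axis) against the percentage of 50-base coding windows that also occur in another annotated gene, for the 42 members outside the restricted isoforms of complex IV. The 5 members at 99.7 to 100% lie between 3.59 and 33.4, and the 19 with no shared coding window between 9.80 and 327. Scaled by main transcript length, which is not drawn, the 5 reach 111.

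The partner subunits made in the mitochondria were also measured. Reads were assigned to mt-Co1, the catalytic subunit of complex IV, at 4498, 4494, 4226, 4482 and 3765 RPKM, and to mt-Cytb, the cytochrome b of complex III, at 3638, 3562, 3570, 3553 and 3226 RPKM. Both were lowest in mouse 11 as measured, with a mean log2 deviation of -0.12, and both were highest there once the GC and length trend was removed, with a mean of 0.20. The log2 ratio of mt-Co1 to its nuclear partner Cox4i1 was 4.66 ± 0.32 and that of mt-Cytb to Uqcrfs1 was 5.33 ± 0.22, each lowest in mouse 11 at 4.12 and 5.02. The other subunits, mt-Co2, mt-Co3, mt-Atp6 and mt-Atp8, held 0 counts in every library, apart from 1 count of mt-Atp6 in mouse 9. Windows shared with other annotated genes made up 100% of mt-Co2, 99.9% of mt-Co3 and 99.5% of mt-Atp6, but 51.1% of mt-Co1, 0% of mt-Cytb and 0% of mt-Atp8. The ratio of mt-Atp6 to Atp5b therefore depends on the value added to RPKM and is not interpreted.

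Assembly factors of these complexes were present at lower levels than the subunits. The median was 5.45 RPKM for the 4 factors of complex II, 8.91 for the 6 of complex III, 7.78 for 24 genes of complex IV and 12.2 for the 6 of complex V. In edgeR none was called at the adjusted threshold, and Pet100, a complex IV factor, alone passed it unadjusted. Uqcc2, a complex III factor, had 25.1, 34.7, 24.7, 21.1 and 42.6 RPKM, with mouse 11 highest and mouse 10 lowest. Ndufa4, which is bound to complex IV, had 85.9 ± 11.7 RPKM, and Atpif1, the inhibitor of ATP synthase, 29.9 ± 5.01. Sdhaf2, which helps to load the flavin of Sdha, had 10.7 ± 1.22 RPKM. Sco2, a copper chaperone, is listed at 0.

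Transcription factors and coactivators known to act on nuclear respiratory genes were also measured. Their list includes Tfam, Tfb1m and Tfb2m, which act on mitochondrial DNA instead. All 16 passed the filter and 0 were called or had an unadjusted p under 0.05 in edgeR. Their median deviations were -0.05, 0.07, 0.04, 0.12 and -0.20 in mice 7 to 11. Removing the trend took the median in mouse 11 to -0.04. Mouse 10 had the top value for 6 of the 16, against 1858 of all 16318 genes tested. Mouse 11 had the bottom value for 9 of the 16, against 5583 of all genes tested. Of the 16, Yy1 had the highest level at 20.3 ± 3.02 RPKM and Esrrb the lowest at 0.784 ± 0.200. The coactivator Ppargc1a had 11.5 ± 1.29 RPKM, its partner Esrra 9.05 ± 2.78 and Nrf1 2.05 ± 0.141.

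NRF1 binds a palindromic motif in the promoters of many respiratory genes, and of the 4 motifs searched it had the largest ratio between members and all promoters. RefSeq promoter windows of 300 bases around the start in GRCm38.p6 were matched to 37 members, which had 40 windows. The letters CGCATGCGC, on either strand, occurred in 7 of 40 windows (17.5%) and in 1.75% of all 32851 windows. The GABP motif CCGGAAGT occurred in 10% against 3.89%, the YY1 motif AAGATGGCG in 5% against 1.403% and the SP1 motif GGGCGG in 37.5% against 35.7%. No test was made of these shares. The NRF1 matches, in capitals with up to 10 bases on each side, are printed from 5′ to 3′ on the strand of the gene, at the distances given from the annotated start.
Atp5g2, chr15:102671070-102671098, minus strand, position -41: gctccggccgCGCATGCGCagagccttcc
Atp5k, chr5:108434430-108434458, minus strand, position -49: ttcactgcggCGCATGCGCctttctggct
Atp5l, chr9:44920965-44920992, minus strand, position -241: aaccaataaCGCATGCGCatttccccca
Cox6a1, chr5:115349101-115349129, minus strand, position -161: aggaacggggCGCATGCGCgctctcgctc
Cycs, chr6:50566612-50566640, minus strand, position -61: catgctagctCGCATGCGCgcgcacaaac
Uqcr11, chr10:80406808-80406836, minus strand, position -5: atcgccttcaCGCATGCGCtatacgtctg
Uqcrc1, chr9:108936669-108936697, plus strand, position 31: ctccgctctgCGCATGCGCagcgcggctc
Of the 7 genes Cox6a1, Uqcr11, Uqcrc1, Atp5g2 and Atp5l were highest in mouse 11, as were 31 of the 47 members tested and 35.8% of all genes. Atp5k was highest in mouse 8 and Cycs in mouse 7. Whether the motif bears on these positions was not tested. A match of letters is a description of the sequence and does not show that NRF1 was bound.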

How the data were processed

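The authors deposited whole-number counts per Ensembl gene, and RPKM values, for the 5 libraries. The tools named in the submitters' processing notes are featureCounts (1.4.6-p4), STAR (2.4.1d) and CASAVA (1.7), with the build GRCm38. Read length, strand setting, annotation release and the treatment of multiply matching reads are not given in the sources used here.

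The deposited RPKM values did not use each library's own total: for 12729 genes checked, the gene lengths they imply were within 1% of each other for 0 genes with own totals, and for 12729 when totals were taken in turn down the table. RPKM was therefore recomputed from counts with own totals and the implied length. GENCODE M21 gave a symbol to 47310 genes, and the others held 0.0469% of counts. Atp5o has 2 M21 entries, of which 1 is in the table.

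edgeR 4.0.16 fitted an intercept to genes averaging 10 counts or more (TMM, quasi-likelihood). Dispersions were compared with an F distribution fitted robustly in limma 3.58.1, with Benjamini-Hochberg adjustment. Deviations are in log2 CPM with a prior count of 1; pair ratios add 1 to RPKM. DESeq2 1.42.0 size factors were an alternative. The loess trend on GC and length had span 0.5. The edgeR step was also run on simulated data, and the outcome is not reported here. Main transcripts are the annotated principal ones.

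The members and the 29 lists of 228 genes (2 unmatched: Atp5md and Atp5sl) were chosen with earlier results of these data known. Values in every mouse are given for the 2 highest and 2 lowest members of each complex and both genes of each pair. Cox6b2 and Cox7b2, given as mean and SD, are the exceptions. Members with 1 mouse far from the rest also have each value given. Other lists are given as sums, medians or selected genes. Further genes were chosen after their values were seen.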

Additional observations from a re-analysis of the deposited data

Results flagged for a closer look

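In 5 members 1 mouse lay far from the other 4 by Dixon's criterion, a gap over 0.71 of the whole range, and it was mouse 11 each time. The log2 CPM deviations were 0.916 for Cox6a1 (the others between -0.37 and -0.16), -0.777 for Uqcrc2 (0.14 to 0.31), 0.706 for Atp5d (-0.31 to -0.04), 0.507 for Uqcrc1 (-0.22 to -0.07) and 0.583 for Cyc1 (-0.21 to -0.07). The mean deviation of mt-Co1 and mt-Cytb in mouse 11 was -0.117, against 0.02 to 0.06 in the others, and turned to 0.20 with the trends on GC and length removed. The log2 ratio of Uqcrc1 to Uqcrc2 was 0.305 in mouse 11 and between -1.32 and -1.19 in the others. In all, 74 values were examined and 7 passed. Chance passes about 1 in 20 groups, and over all genes tested 10.8% passed, against 10.6% of the members. With the trends on GC and length removed 4 members passed.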

How the results depend on the processing

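Without a filter on low counts edgeR called 1 member, Atp5k, and with DESeq2 size factors, library size scaling, a mean count of at least 50 or any mouse left out it called 0. With the GC and length trend removed, members highest in mouse 11 went from 31 to 20, and the mean deviation of mt-Co1 and mt-Cytb in mouse 11 turned from -0.117 to 0.20. Without mouse 11 the members' median SD went from 0.30 to 0.18. With the length of the principal transcript, an alternative chosen after seeing the data, the median member had 75.5 RPKM and Atp5b to Atp5a1 turned from -0.085 to 0.71. The log2 ratio then was 7.04 for Cox4i1 to Cox4i2, 5.63 for Cox6b1 to Cox6b2, 1.41 for Atp5g3 to Atp5g1, 2.95 for Atp5g1 to Atp5g2, -0.095 for Sdhb to Sdha, -0.076 for Uqcrc1 to Uqcrc2, 3.61 for mt-Co1 to Cox4i1 and -9.39 for mt-Atp6 to Atp5b. With a pseudocount of 0.1 the ratios were 6.68 for Cox4i1 to Cox4i2, 6.99 for Cox6b1 to Cox6b2, 6.21 for Cox7a2 to Cox7a1, 7.56 for Cox7b to Cox7b2, 6.96 for Cox8a to Cox8b, 11.2 for Cox8a to Cox8c, 4.74 for Atp5g3 to Atp5g2, 1.90 for Atp5g1 to Atp5g2 and -11.4 for mt-Atp6 to Atp5b. Where a gene is at 0 the pseudocount sets the ratio. Of the single members' levels 32 of 49 moved by more than 1 SD with the principal transcript's length and 9 with the annotated exon length. The other 236 values of the main results under these and other settings stayed within the spread between mice or, for counts, within 1.5 times. Depth limits Cox7b2 and Cox8c, which lie at or under 3 counts. It also limits Cox8b (5 to 24 counts), Cox7a1 (8 to 23), Cox4i2 (13 to 27) and Cox6b2 (16 to 35). No paired analysis was possible because the labels give a single group.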
